A study of Mus musculus with 6 samples.

Results

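The contacts described here join the stretch of the mouse immunoglobulin heavy chain locus (Igh) that holds the intronic enhancer and the J and D gene segments with the 2 blocks of V genes nearest to it. They were measured by chromosome conformation capture carbon copy (5C), in which chromatin is crosslinked, cut with HindIII and religated, and the junctions between a forward-primer fragment (FOR) and a reverse-primer fragment (REV) are amplified and counted. A primer pair was included when the midpoint of its first fragment lay at chr12:114656273-114691293 (mm9; enhancer, J and D) and the midpoint of its second at chr12:114809751-115709849 (mm9; proximal and middle V). This position rule, which used no read count, took 456 of the 12656 forward-reverse pairs of Igh: 124 pairs with the proximal V block and 332 with the middle V block. They come from 13 D-J fragments (7 FOR, 6 REV), 19 proximal V fragments and 51 middle V fragments, at separations of 128 to 1051 kb. Fragment FOR 76 lies nearest to the constant genes and FOR 91 nearest to the V genes. The enhancer fragment is REV 81, which lies between FOR 80 (chr12:114664064-114664823) and FOR 82 (chr12:114667096-114667886). An mm9 annotation was not used here, so which J, D or V segment a fragment holds is not given, and the label of the enhancer fragment was taken from the position rule.

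Resting B libraries were made from CD43- splenic B cells taken straight from the spleen with magnetic beads. Pro-B libraries were made from Rag2-deficient bone marrow cells grown in IL7 for 4 days, and MEF libraries from cultured mouse embryonic fibroblasts. Each of the 3 cell types had 2 libraries, which the study calls biological replicates. The p-values measure the spread between these libraries. Neither strain nor age was given in the labels.

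An antibody heavy chain gene is assembled by V(D)J recombination, in which a D segment is joined to a J segment and a V segment is then joined to the DJ unit, and the DNA between the joined ends is removed. Rag2 is part of the recombinase, so Rag2-deficient pro-B cells keep the locus in its unrearranged form, as fibroblasts do. Mature B cells carry rearranged Igh alleles that differ from cell to cell. The intronic enhancer lies between the J segments and the constant gene Ighm, and the V genes stretch away from the D segments on the other side. In a bulk library, the share of alleles that still carry a fragment and the contacts made per allele cannot be told apart.

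The 6 libraries held 20580457 to 24191175 valid read pairs. The 456 pairs took 0.610% and 0.646% of the Igh reads in the resting B libraries, 0.294% and 0.424% in the pro-B libraries, and 0.280% and 0.506% in the MEF libraries. Their median was 62 and 70 reads in resting B, 42 and 22.5 reads in pro-B, and 55 and 92 reads in MEF. Pro-B replicate 2 stood apart: 74 of the 456 pairs had 0 reads there, against 6 to 16 in the other 5 libraries. In all, 432 of the 456 pairs reached 10 reads in 2 libraries and were tested, and 24 were not. Levels below are in CPM, that is, reads set to a common library size with TMM factors over the tested pairs within a chromosome. Reads carry no molecular identifiers, so intervals on shares cover counting error only.

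Summed over all its pairs, the D-J region had more reads with the proximal and middle V genes in resting B cells than in the other cell types, but no sum passed the threshold. The sum was 4874 and 5664 CPM in resting B, 3458 and 3745 in pro-B, and 3617 and 3907 in MEF. Both resting B libraries lay above all 4 others, while pro-B and MEF overlapped. The log2 fold of resting B was 0.49 over MEF (SE 0.21, edgeR quasi-likelihood adjusted p = 0.0875) and 0.55 over pro-B (SE 0.21, adjusted p = 0.0562). That of pro-B over MEF was -0.06 (SE 0.21, adjusted p = 0.904). Without pro-B replicate 1 or 2 the sum over MEF passed at log2 folds of 0.47 and 0.48 (adjusted p = 0.0210 and 0.0161), and without pro-B replicate 2 the sum over pro-B passed at 0.60 (adjusted p = 0.0175). Across all 56 region sums, the comparison of resting B with MEF passed as higher for 32.1% and as lower for 16.1%, that of resting B with pro-B for 17.9% and 21.4%, and that of pro-B with MEF for 8.93% and 0%.

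The sums were also taken for each V block. With the proximal V block, the sum was 2774 and 3246 CPM in resting B, 2086 and 2181 in pro-B, and 2022 and 2243 in MEF. With the middle V block it was 2099 and 2418 in resting B, 1372 and 1564 in pro-B, and 1595 and 1664 in MEF. The log2 fold of resting B over MEF was 0.50 for the proximal and 0.47 for the middle block (adjusted p = 0.0957 and 0.111), and that of resting B over pro-B was 0.50 and 0.62 (adjusted p = 0.0836 and 0.0554). For pro-B over MEF it was 0.00078 and -0.15 (adjusted p = 0.997 and 0.777). A sum is weighted to the pairs with the most reads. With each primer pair counted once instead, the mean log2 fold of pro-B over MEF was -1.28 for the proximal block and passed (limma adjusted p = 0.0396), and was -1.10 for the middle block (adjusted p = 0.0508). That of resting B over pro-B was then 0.94 for both blocks together and passed (limma adjusted p = 0.0367), and that of resting B over MEF was -0.21 (adjusted p = 0.741). A pair with 0 reads enters these means as 0.5 reads, and 74 of the 456 pairs had 0 reads in pro-B replicate 2, against 6 to 16 elsewhere. In the edgeR fit of single pairs, the median log2 fold of pro-B over MEF was -0.69 for the proximal and -0.39 for the middle block. The share of all region sums that passed with pairs counted once is not given.

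The region sum hid a change of sign within its 35 kb. In resting B cells the fragments from FOR 76 to REV 83, which include the enhancer, had a higher mean of contacts with the V genes than in MEF. Those from FOR 84 to FOR 91, on the D side, had a lower mean. The resting B libraries overlapped MEF for REV 79 and REV 90. Of the 13 fragment sums, 4 rose and 2 fell for resting B over MEF, beside 18.4% higher and 14.4% lower among all 2465 fragment sums tested. Over pro-B, 5 rose and 1 fell in resting B, beside 17.3% and 19.6%. For pro-B over MEF none passed in either direction, beside 1.34% and 0.0406%, and the sums of lowest p, FOR 91 and REV 90, had log2 folds of -0.76 and -0.78.

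**Figure D1:**
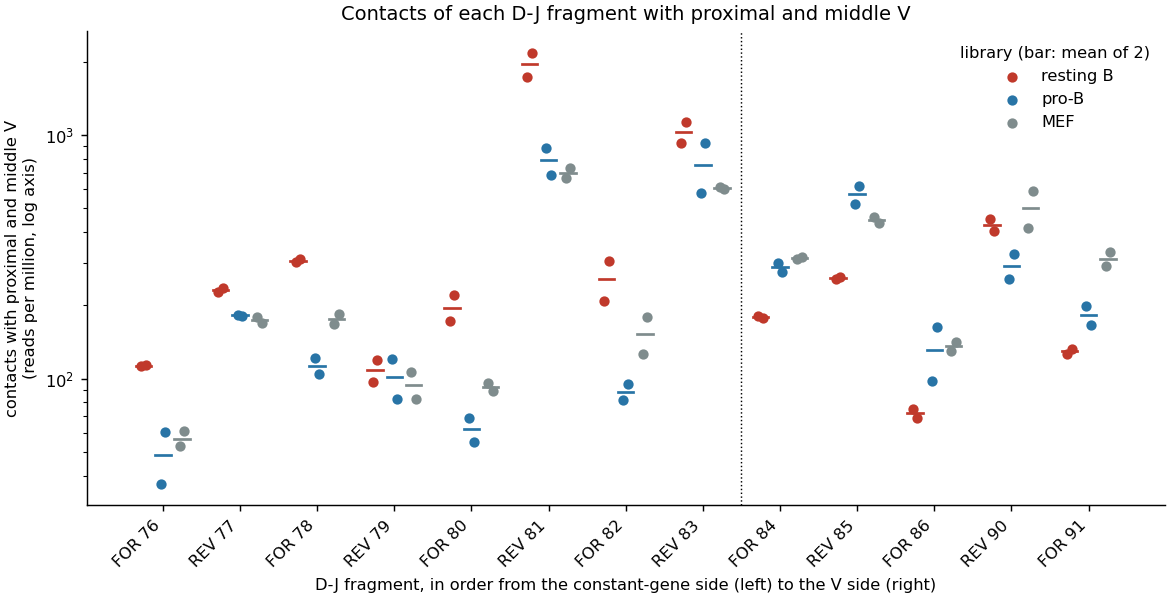
Contacts with the proximal and middle V genes of each of the 13 D-J fragments, in CPM on a log axis, with a point per library, a bar at the mean of the 2 libraries, and resting B, pro-B and MEF from left to right within a fragment. Resting B points sit highest for the enhancer fragment REV 81 (1731 and 2178) and lowest to the right of the dotted line at FOR 84, REV 85, FOR 86 and FOR 91.

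The enhancer fragment REV 81 had the most reads with the V genes of the 13 in resting B and MEF. Reads of different fragments also hold their capture, and the primer directions meet different V fragments, so this is not a ranking of contact frequency. The sum of REV 81 was 1731 and 2178 CPM in resting B, 887 and 689 in pro-B, and 668 and 732 in MEF. The resting B libraries lay above all 4 others, and pro-B and MEF overlapped. It rose in resting B over MEF by 1.48 on the log2 scale (SE 0.31, edgeR adjusted p = 0.0133) and over pro-B by 1.31 (SE 0.30, adjusted p = 0.0168). Both V blocks showed it: with the proximal block the log2 fold over MEF was 1.59 and with the middle block 1.28 (adjusted p = 0.0113 and 0.0159).

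The 3 forward-primer fragments between the constant genes and the enhancer fragment also rose. FOR 80, which borders the enhancer fragment, had 172 and 220 CPM in resting B, 68.8 and 55.1 in pro-B, and 95.7 and 88.9 in MEF. It rose by 1.09 over MEF (adjusted p = 0.0225) and by 1.66 over pro-B (adjusted p = 0.00579). FOR 78 had 302 and 310 in resting B, 122 and 104 in pro-B, and 168 and 184 in MEF. It rose by 0.80 over MEF (adjusted p = 0.0487) and by 1.43 over pro-B (adjusted p = 0.00761). FOR 76, the outermost, had 112 and 114 in resting B, 37.1 and 60.2 in pro-B, and 52.7 and 60.8 in MEF, and rose by 0.99 and 1.22 (adjusted p = 0.0468 and 0.0226). The reverse-primer fragments among them, REV 77 and REV 79, passed in no comparison, with log2 folds of 0.41 and 0.20 for resting B over MEF.

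On the V side of the enhancer, the neighbouring fragments FOR 82 and REV 83 were still higher in resting B. FOR 82 had 209 and 303 CPM in resting B, 82.2 and 94.9 in pro-B, and 127 and 179 in MEF. It rose over pro-B by 1.53 (adjusted p = 0.0114), and its log2 fold over MEF was 0.74 (adjusted p = 0.105). REV 83 had 933 and 1137 in resting B, 580 and 929 in pro-B, and 611 and 599 in MEF, and passed in no comparison (log2 fold over MEF 0.77, adjusted p = 0.109). The resting B libraries lay above the other 4 for both fragments.

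The order turned at the next HindIII site, between REV 83, which ends at chr12:114670119, and FOR 84, which begins at chr12:114670120. FOR 84 had 181 and 178 CPM in resting B, 298 and 275 in pro-B, and 310 and 316 in MEF. It fell in resting B over MEF by 0.80 on the log2 scale (adjusted p = 0.0468), and its log2 fold over pro-B was -0.68 (adjusted p = 0.0708). REV 85 had 256 and 262 in resting B, 523 and 618 in pro-B, and 463 and 437 in MEF. It fell over pro-B by 1.14 (adjusted p = 0.0161), and its log2 fold over MEF was -0.80 (adjusted p = 0.0540).

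Farther into the D side the resting B values stayed low. FOR 86 had 75.1 and 69.2 CPM in resting B, 98.2 and 164 in pro-B, and 130 and 142 in MEF, with log2 folds of -0.91 over MEF and -0.86 over pro-B that did not pass (adjusted p = 0.0584 and 0.0650). FOR 91, the fragment nearest to the V genes, had 127 and 132 in resting B, 200 and 166 in pro-B, and 291 and 331 in MEF. It fell over MEF by 1.26 (adjusted p = 0.0133), and its log2 fold over pro-B was -0.50 (adjusted p = 0.166). REV 90 was the exception to the side: it had 452 and 404 in resting B, 257 and 326 in pro-B, and 414 and 587 in MEF, overlapped MEF, and passed in no comparison.

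**Figure D2:**
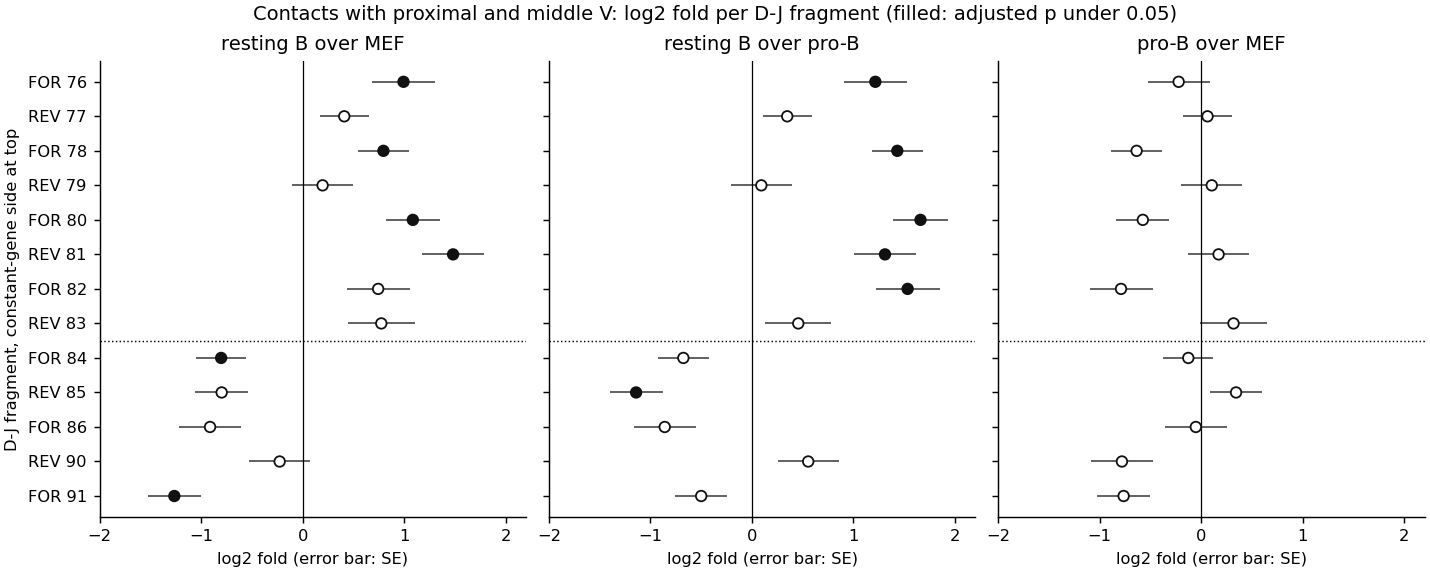
Log2 fold of each D-J fragment's summed contacts with the proximal and middle V genes (x axis, bars are the SE of the fit), fragments from the constant-gene side at the top to the V side at the bottom, in 3 panels, one per comparison. The dotted line was placed after the values were seen. For resting B over MEF all 8 points above it are positive, with the highest at REV 81 (1.48). All 5 below it are negative, with the lowest at FOR 91 (-1.26). Under desert scaling REV 90 is at 0.16.

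Split there, a division drawn after the values were seen and so given with no test, the 280 pairs of the first 8 fragments summed to 3783 and 4618 CPM in resting B, 2081 and 2196 in pro-B, and 2009 and 2095 in MEF. The 176 pairs of the last 5 fragments summed to 1090 and 1046 in resting B, 1376 and 1549 in pro-B, and 1608 and 1812 in MEF. The mean of resting B was above that of MEF for 194 of the 280 pairs and for 23 of the 176. Both resting B libraries lay above both MEF libraries for 105 of the 280 pairs and below them for 39, and above for 8 and below for 109 of the 176, where 32.3% of all 12656 Igh pairs lay above and 36.0% below. FOR 91 was below MEF in its mean at 36 of its 36 V partners, and the enhancer fragment above MEF at 30 of 34. Other fragments were mixed: REV 77 was above MEF at 14 partners and below at 20, REV 79 at 18 and 16, and REV 90 at 13 and 21. The share of all Igh pairs with a higher mean is not given. Against pro-B, the resting B mean was higher for 210 of the 280 pairs and for 52 of the 176. Both resting B libraries lay above both pro-B libraries for 140 of the 280 pairs and below for 18, and above for 23 and below for 64 of the 176, where 31.6% and 28.3% of all Igh pairs did so. Both pro-B libraries lay above both MEF libraries for 19 of the 280 pairs and 24 of the 176, and below for 98 and 56, where 18.7% and 22.5% of all Igh pairs did so. Of the 5411 tested Igh pairs within the same span of separations, 1404 lay above and 2326 below for resting B over MEF. For resting B over pro-B these were 1427 and 1892, and for pro-B over MEF 1223 and 1106.

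Several measures bear on these sums. No D-J fragment passed for resting B over MEF without either MEF library or without either resting B library. Calls over pro-B also varied with the library left out. The share of all fragment sums that passed is not given for these fits, so their counts of calls are not read here. With 1 library left out, the log2 fold of REV 81 moved between 1.31 and 1.64 over MEF and between 1.13 and 1.49 over pro-B. That of FOR 91 moved between -1.36 and -1.17 over MEF. Scaling libraries by all Igh reads instead of TMM moved the log2 folds of the 13 fragments in resting B over MEF by 0.14 to 0.25, and scaling by reads within a gene desert on chromosome 16, a control region in the same primer set, moved them by 0.38 to 0.51. The 4 rises and 2 falls over MEF then became 1 rise and no fall under either scaling, and the 5 rises and 1 fall over pro-B became 4 rises and 1 rise with no fall. The SE of the D-J region sum over MEF was 0.58 and 0.71 under these scalings, against 0.21 with TMM. The share of all fragment sums that passed is not given for them, so the lost calls are not read as particular to these fragments. The rise over MEF under desert scaling was REV 81 (log2 fold 1.92, adjusted p = 0.00666). The log2 fold of REV 90 over MEF was 0.16 under desert scaling, against -0.23 with TMM.

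Reads that join a fragment to the gene desert, on another chromosome, give a measure of its capture. These reads made up 0.554% of valid pairs in pro-B replicate 1 and 2.02% to 3.41% in the other 5 libraries. As a share of all Igh-to-desert reads, each of the 13 fragments was higher in resting B than in MEF, by 0.77 to 1.94 on the log2 scale for the first 8 fragments and by 0.85 to 1.33 for the last 5. An offset was built from such shares for both fragments of a pair, D-J and V, each taken within its primer direction. With it no fragment passed, and the SE grew to 0.81 to 1.02 for resting B over MEF. The log2 folds over MEF were then 0.45 for REV 81, 0.26 for FOR 78, -0.31 for FOR 76 and -0.46 for FOR 80, and -1.93 for FOR 84 and -2.40 for FOR 91. The parts of the D-J and the V fragments in this offset were not separated. Beyond it, the part of capture in the sums was not tested.

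With partners outside the proximal and middle V blocks, in the same fit, the D side was below 0 in its median in most regions for resting B over MEF, but not with the flanks of the locus. With the near distal V genes, 3 of the first 8 fragments rose and 3 of the last 5 fell in resting B over MEF, and with the far distal V genes 2 rose and 1 fell. With the constant region 5 of the 8 rose and 2 of the 5 fell. With the stretch between the D segments and the first V genes none of the 8 passed and 4 of the 5 fell, and the median log2 fold was -1.70 over the 5 and 0.20 over the 8. With the 3' regulatory region, a cluster of enhancers beyond the constant genes, 7 of the 8 rose and none of the 5 passed. With the 3' flank of the locus all 8 rose and so did 2 of the 5, whose median log2 fold was 1.03, with all 5 above 0. With the 5' flank 3 of the 8 rose and none of the 5 passed, and 4 of the 5 were above 0 (median 0.23). Within the D-J region itself none of the 8 passed and 2 of the 5 fell. The first 8 fragments had a median log2 fold of 2.88 with the 3' regulatory region, against 0.66 with the proximal and 0.96 with the middle V block.

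**Figure D3:**
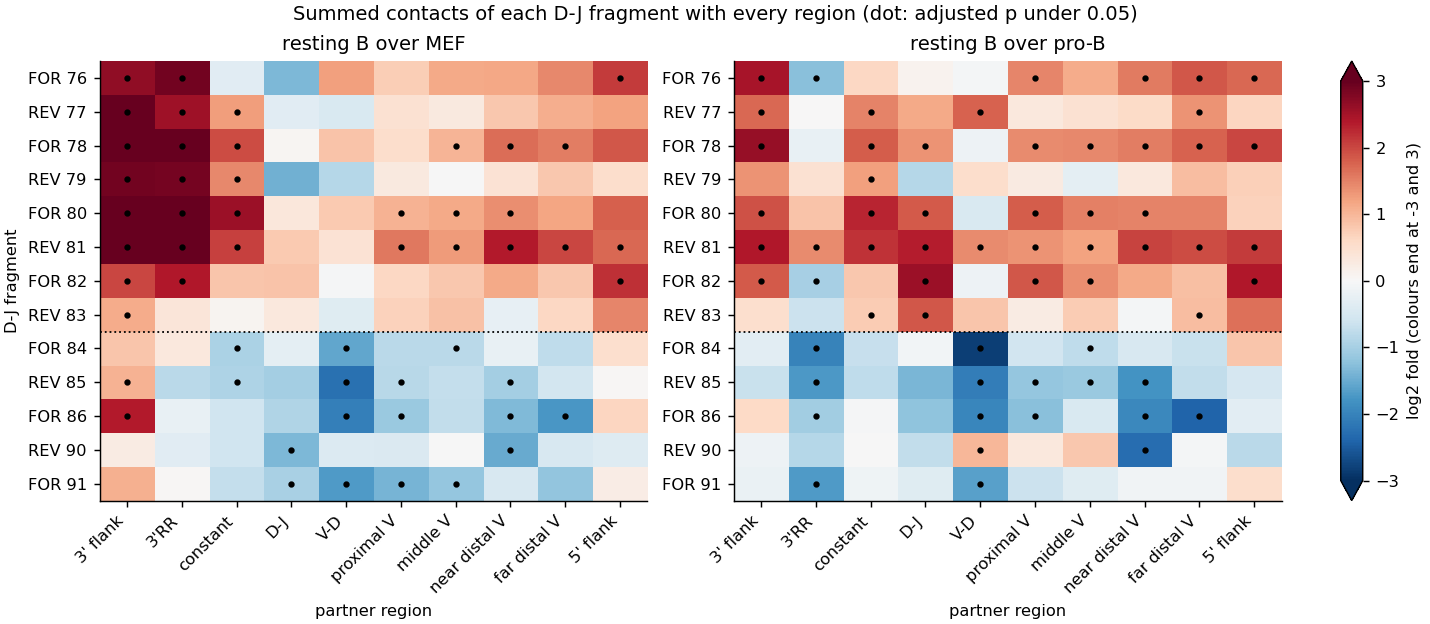
Log2 fold (colour, red higher in resting B) of the summed contacts of each D-J fragment (rows, constant-gene side at the top) with each of the 10 regions of the locus (columns, in order along the chromosome), for resting B over MEF and resting B over pro-B, a dot marking an adjusted p under 0.05. Rows below the dotted line are blue with the constant region, the V-D stretch, the proximal V block and the distal V blocks in the MEF panel, where all 5 fragments are negative, and red with the 3' flank, where all 5 are positive. The first 8 rows are red with the 3' regulatory region there.

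The summed contacts were then set against like sets of pairs. The ratio of D-J to constant-region reads with the same V genes had a log2 difference of 0.10 for resting B over MEF, 0.08 for resting B over pro-B and 0.02 for pro-B over MEF (SE 0.27; limma adjusted p = 0.792, 0.840 and 0.973). The ratio of D-J reads with the proximal and middle V to those with the near distal V had a log2 difference of 0.33 for resting B over MEF, 0.80 for resting B over pro-B and -0.48 for pro-B over MEF (SE 0.35), and the ratio to the far distal V one of -0.34, -0.47 and 0.13 in these comparisons (SE 0.32). Without pro-B replicate 1, the differences over pro-B passed, at 1.16 for the near and -0.84 for the far distal V (adjusted p = 0.0377 and 0.0343). With all 6 libraries none of these 9 differences passed, beside 41.1%, 38.6% and 1.48% of the 542 region ratios that passed in the 3 comparisons.

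The enhancer fragment was then compared with the D-J neighbours that share its primer direction and so meet the same 34 V fragments. REV 81 took 46.8% and 50.2% of the reads of the 6 reverse-primer fragments in resting B (95% Wilson intervals 46.5 to 47.2% and 49.9 to 50.5%), 34.8% and 24.4% in pro-B, and 27.3% and 28.1% in MEF. Its log2 ratio to the sum of the other 5 was -0.18 and 0.01 in resting B, -0.91 and -1.63 in pro-B, and -1.41 and -1.36 in MEF. The resting B libraries lay above the other 4, but the difference did not pass: 1.30 over MEF (SE 0.33, limma adjusted p = 0.0728) and 1.19 over pro-B (SE 0.33, adjusted p = 0.0521), with 0.11 for pro-B over MEF (adjusted p = 0.898). Without pro-B replicate 1 or 2 the difference over MEF passed at the same 1.30 (adjusted p = 0.0205 and 0.0198), and without pro-B replicate 1 that over pro-B passed at 1.55 (adjusted p = 0.0183).

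Ratios that passed were on the D side over MEF and on both sides over pro-B. REV 85 took 6.92% and 6.05% of the reverse-primer reads in resting B, 20.5% and 21.9% in pro-B, and 19.0% and 16.8% in MEF. Its log2 ratio to its neighbours fell in resting B by 1.65 over MEF and by 1.96 over pro-B (limma adjusted p = 0.0321 and 0.0118). FOR 91 took 10.8% and 9.96% of the forward-primer reads in resting B, 22.0% and 18.1% in pro-B, and 24.8% and 25.4% in MEF, and its ratio fell by 1.54 and 1.11 (adjusted p = 0.0361 and 0.0361). Over pro-B the ratios of FOR 78, FOR 80 and FOR 82 rose by 1.20, 1.35 and 1.24, and those of FOR 84 and FOR 86 fell by 1.45 and 1.40. In all, 0 ratios rose and 2 fell over MEF, beside 0.974% and 4.02% of all 2465 fragment ratios, and 3 rose and 4 fell over pro-B, beside 9.05% and 12.1%. A ratio within a direction falls for some fragments when it rises for others, so these 13 are not separate measurements.

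Partner by partner, the fold of the enhancer fragment in resting B was above that of its neighbours at most V fragments. All 34 of its pairs were tested. For resting B over MEF its log2 fold was above the median fold of the tested neighbours with the same V fragment at 34 of 34 partners, by a median of 1.21. Over pro-B it was above at 29 of 34, by a median of 1.23, and for pro-B over MEF at 15 of 34, by a median of -0.05. The 34 pairs share the enhancer fragment, its primer and the same libraries, so they are not independent observations. They are the parts of the sums already compared. The neighbours include REV 85 and REV 90, whose sums had log2 folds of -0.80 and -0.23 for resting B over MEF.

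**Figure D4:**
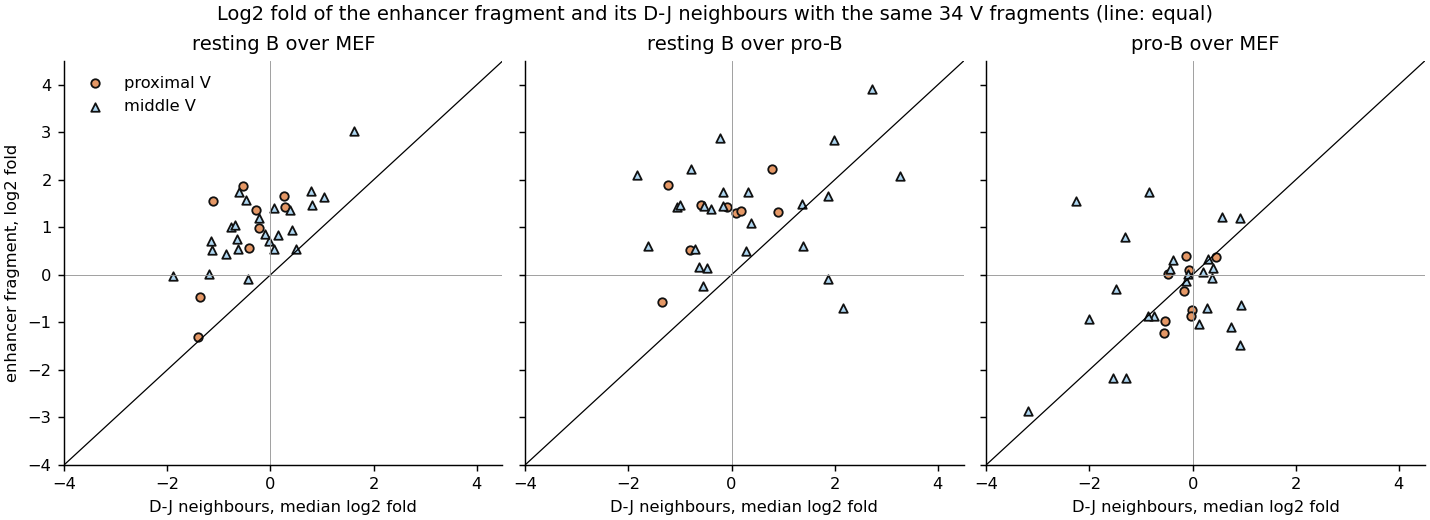
Log2 fold of the enhancer fragment REV 81 (y axis) against the median log2 fold of the other 5 reverse-primer D-J fragments (x axis) with the same V fragment, a point per V fragment, circles for proximal and triangles for middle V, in a panel per comparison, with the line of equal values. All 34 points lie above the line for resting B over MEF, 29 for resting B over pro-B and 15 for pro-B over MEF.

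Read counts of different V fragments also hold their capture. Of the 34 V fragments that meet the enhancer, FOR 126 had the most reads to the gene desert in each library: 4.14% and 4.12% of the Igh-to-desert reads in resting B, 4.35% and 6.25% in pro-B, and 1.77% and 2.47% in MEF, where the median of the 34 was 0.0266% to 0.114%. The pair with the most reads in each cell type joined it to FOR 126 of the proximal block, 160 kb away, with 14837 and 19064 reads in resting B, 5535 and 7022 in pro-B, and 3785 and 6917 in MEF. Its log2 fold was 1.67 over MEF (adjusted p = 0.0754) and 1.29 over pro-B (adjusted p = 0.0720). FOR 126 was also the partner in the other pairs with the most reads: with REV 83 it had 9602 and 9548 reads in resting B, 3272 and 9809 in pro-B, and 3182 and 5811 in MEF. With REV 85, on the far side of the turn, it had 2446 and 2126 reads in resting B, 3443 and 6291 in pro-B, and 2695 and 4249 in MEF. In resting B the third place went to FOR 147, 233 kb from the enhancer, with 6478 and 8063 reads there, 3125 and 1313 in pro-B, and 1397 and 2625 in MEF.

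**Figure D5:**
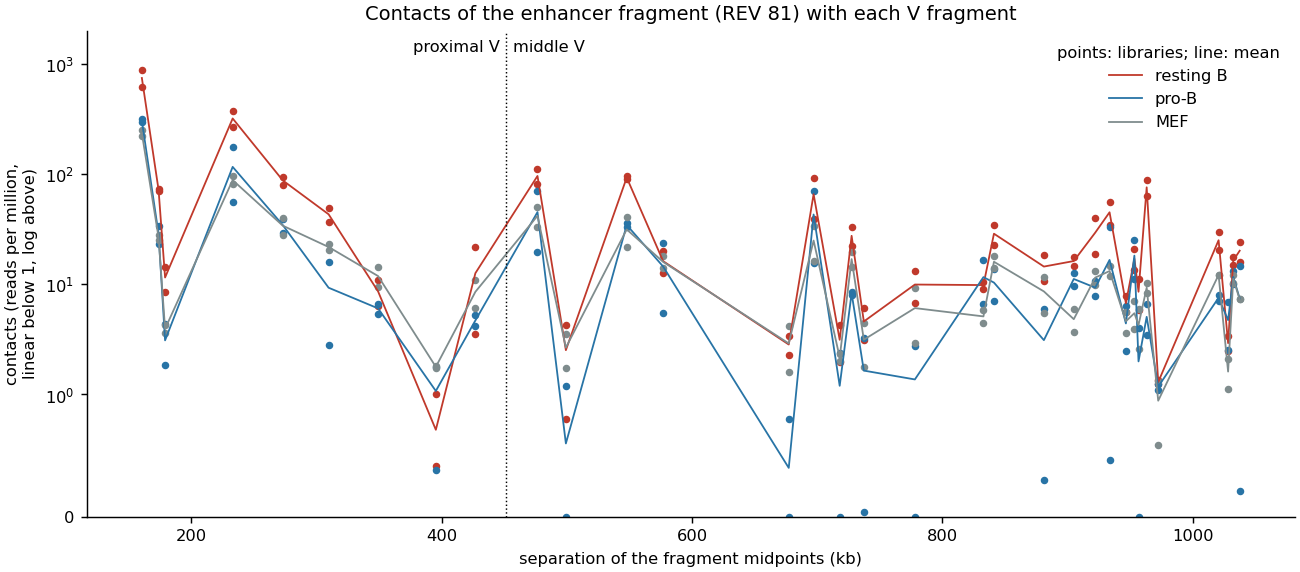
Contacts of the enhancer fragment REV 81 with each of its 34 V fragments (y axis, CPM, linear below 1 and log above) by the separation of the fragment midpoints (x axis, kb), a point per library and a line through the mean of each cell type, with the dotted line between the proximal and middle V blocks. Resting B stands above the other cell types at FOR 126 (160 kb), FOR 147 (233 kb) and FOR 346 (963 kb).

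In the middle block the enhancer fragment's contact with FOR 346, 963 kb away, gave the lowest p of its 34 pairs. It had 89.6 and 63.0 CPM in resting B (2137 and 1361 reads), 3.48 and 6.67 in pro-B (61 and 157 reads), and 10.4 and 8.28 in MEF (178 and 227 reads). It rose over pro-B by 3.91 on the log2 scale (SE 0.54, edgeR adjusted p = 0.0214), and its log2 fold over MEF was 3.03 (SE 0.52, adjusted p = 0.0505). With FOR 233 the enhancer had 91.4 and 95.7 in resting B, 36.1 and 33.2 in pro-B, and 41.3 and 21.9 in MEF, and with FOR 283 it had 33.0 and 22.3 in resting B, 8.62 and 8.03 in pro-B, and 14.3 and 19.7 in MEF. Neither passed in any comparison. For pro-B over MEF the pairs of lowest p were those with FOR 340 (11.2 and 25.3 in pro-B, 7.02 and 3.94 in MEF), FOR 283 and FOR 324 (9.59 and 12.8 in pro-B, 3.68 and 5.98 in MEF), all with an adjusted p of 0.497 or above.

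Over all 432 tested pairs, none passed for pro-B over MEF or resting B over MEF, beside 0% and 0% of all Igh pairs in the first comparison and 0.369% higher and 0.385% lower in the second. At an unadjusted p under 0.05 there were 5 higher and 25 lower pairs for pro-B over MEF and 18 higher and 23 lower for resting B over MEF, where 4.99% and 4.17% of all Igh pairs reached it in the first comparison and 8.74% and 12.2% in the second. DESeq2 gave 0 higher and 9 lower for pro-B over MEF, beside 1.36% and 1.22% of all Igh pairs, and 12 higher and 12 lower for resting B over MEF, beside 6.31% and 7.55%. In resting B, 5 pairs rose and 3 fell over pro-B, beside 2.74% and 5.16% of all Igh pairs. The median log2 fold of the tested pairs was 0.38 for resting B over pro-B, -0.03 for resting B over MEF and -0.46 for pro-B over MEF, beside 0.01, -0.02 and 0.03 over all 11940 tested Igh pairs. Over the 5411 tested Igh pairs within the same span of separations, the medians were -0.32, -0.34 and 0.12.

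The pairs that passed for resting B over pro-B went the way of the sums on their side of the region, except for 1. They are part of those sums, and the sides were drawn after the values were seen, so this is no separate support for the sides. On the enhancer side, FOR 80 and FOR 82 each rose with REV 171 of the proximal block. FOR 80 with REV 171 had 479 and 640 reads in resting B, 39 and 10 in pro-B, and 97 and 142 in MEF (log2 fold over pro-B 4.24, adjusted p = 0.0387). FOR 82 with REV 171 had 719 and 646 reads in resting B, 46 and 11 in pro-B, and 92 and 162 in MEF (4.29, adjusted p = 0.0361). These are neighbouring fragments with a common partner and are not independent observations.

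In 2 of the other rises resting B and MEF were close, and only the pro-B reads were low. FOR 80 with REV 192 had 95 and 91 reads in resting B, 1 and 2 in pro-B, and 77 and 74 in MEF. FOR 329 with REV 90, the pair outside the pattern of sides, had 1359 and 881 reads in resting B, 76 and 23 in pro-B, and 601 and 1272 in MEF. The log2 folds of resting B over MEF were 0.19 and 0.26 (adjusted p = 0.920 and 0.852).

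The 3 pairs that fell all began on the D side. FOR 84 with REV 187 had 110 and 91 reads in resting B, 427 and 532 in pro-B, and 311 and 614 in MEF (log2 fold over pro-B -2.41, adjusted p = 0.0353). FOR 84 with REV 129 had 1.80 and 1.62 CPM in resting B, 14.6 and 13.0 in pro-B, and 9.53 and 8.21 in MEF (-3.01, adjusted p = 0.0376). FOR 91 with REV 335 had 3 and 5 reads in resting B, 88 and 148 in pro-B, and 47 and 96 in MEF (-4.95, adjusted p = 0.0353). All 4 libraries of the other cell types lay above both resting B libraries in each of them.

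For the comparisons in which none passed, the pairs of lowest p were as follows. For resting B over MEF they were REV 81 with FOR 346 and FOR 126 on the higher side, and FOR 84 with REV 187 (adjusted p = 0.0743) and FOR 91 with REV 335 (adjusted p = 0.0837) on the lower. For pro-B over MEF, FOR 371 with REV 77 had 72 and 114 reads in pro-B and 11 and 13 in MEF, and FOR 86 with REV 292 had 37 and 318 in pro-B and 9 and 16 in MEF. On the lower side, FOR 329 with REV 90 and FOR 80 with REV 192 had the pro-B reads given above (adjusted p = 0.333 for both).

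These calls at single pairs depended on which libraries entered and on the scaling: the 5 rises and 3 falls over pro-B became 9 and 1 with all Igh reads as library size, beside 3.38% and 3.35% of all Igh pairs, and 12 and 0 with desert reads, beside 3.82% and 2.92%. Without either MEF or either resting B library no pair passed in any comparison. Leaving out a library leaves 1 in its group, which is then assumed to vary like the other groups. Without pro-B replicate 2, 52 pairs rose and 29 fell for resting B over pro-B, beside 15.2% and 17.3% of all Igh pairs in that fit. Without pro-B replicate 1, 162 rose and 43 fell, beside 28.3% and 18.8%. Resting B over MEF gave 28 rises and 34 falls without pro-B replicate 1, beside 13.7% and 14.3%, and 31 and 34 without pro-B replicate 2, beside 13.8% and 14.7%. Pro-B over MEF gave 17 rises and 144 falls without pro-B replicate 1, beside 9.55% and 22.7%, and 0 and 4 without pro-B replicate 2, beside 1.26% and 0.558%.

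Seen from the V side, contact with the whole D-J region changed at few of the 70 V fragments. In resting B 3 rose and 2 fell over MEF, and 9 rose and 1 fell over pro-B, while none passed between pro-B and MEF. Those shares are 4.29% and 2.86% over MEF and 12.9% and 1.43% over pro-B, below the backgrounds of all fragment sums given above. FOR 346 (chr12:115628291-115630212) had 129 and 103 CPM in resting B, 22.4 and 11.3 in pro-B, and 30.7 and 27.8 in MEF. It rose by 1.99 over MEF and by 2.78 over pro-B (adjusted p = 0.0116 and 0.00449), and its enhancer pair held most of that sum in resting B. FOR 233 had 267 and 284 in resting B, 142 and 161 in pro-B, and 165 and 99.8 in MEF (log2 fold over MEF 1.06, adjusted p = 0.0407).

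REV 187 (chr12:115061883-115074065), a long proximal fragment, went the other way. It had 28.1 and 32.8 CPM in resting B, 67.1 and 62.8 in pro-B, and 78.9 and 76.5 in MEF, and fell by 1.35 over MEF and by 1.09 over pro-B (adjusted p = 0.0113 and 0.0182). REV 271 of the middle block had 4.53 and 5.23 in resting B, 9.24 and 5.65 in pro-B, and 12.6 and 16.2 in MEF, and fell over MEF by 1.56 (adjusted p = 0.0454). The third rise over MEF was FOR 340 (1.42, adjusted p = 0.0477). Over pro-B, REV 171 had 90.0 and 106 in resting B, 24.6 and 36.5 in pro-B, and 71.5 and 53.3 in MEF (1.68, adjusted p = 0.00937), and FOR 329 and FOR 283 rose by 1.53 and 1.09. A reverse-primer V fragment meets only the 7 forward-primer D-J fragments and a forward-primer V fragment only the 6 reverse-primer ones, the enhancer among them, so V sums of the 2 directions are not compared.

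The pairs were also set against the reads that separation and primer strength predicted within a library. A pair was counted when its standardised residual reached 2 in both libraries of a cell type. Of the 456 pairs 1 did so in resting B and none in pro-B or in MEF, beside 1.12% of all Igh pairs in resting B, 0.466% in pro-B and 0.253% in MEF. That pair joined REV 83 to FOR 233, 545 kb apart, with 2971 and 3499 reads in resting B (residuals 2.05 and 2.62), 1053 and 1695 in pro-B, and 1396 and 961 in MEF. It did not count with a residual of 3 or without primer effects in the model. The model fits 1 dispersion per library over all Igh pairs, near ones included, so pairs with few reads had little room to reach 2. The median of the 456 pairs was 62 and 70 reads in resting B. The low count is therefore not read as a lack of contacts.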

How the data were processed

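The authors deposited a list of raw counts for each library, one value for every primer pair seen, and pairs not listed were taken as 0. Per the file headers, reads of 42 bases were matched to the primer set, and per the submitters' processing notes the aligner was Novoalign and the build mm9. Counts were summed per region pair and per fragment. Igh pairs and sums were tested with edgeR 4.0.16 (quasi-likelihood; TMM over cis pairs with at least 10 reads in 2 libraries), ratios with limma 3.58.1 on log2 values with 0.5 reads added, and DESeq2 1.42.0 was an alternative, in R 4.3.3. All 6 libraries entered each fit. Benjamini-Hochberg adjustment ran over the whole table, with a threshold of 0.05. Residuals came from a quasi-Poisson model per library (spline of log separation with 4 df, primer effects). In simulated data for the pair test, with 11940 pairs, 9% of 4-fold and 49% of 16-fold changes of resting B over MEF were recovered, and 3% and 44% of those of resting B over pro-B.

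Named pairs were those with the most reads, the lowest p or past the threshold, up to 6 per direction; named V fragments were up to 4 per direction; all D-J fragments were named. The members, lists and rules were chosen with earlier results of these data known. No sequence was printed because no mm9 genome was used here.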

Additional observations from a re-analysis of the deposited data

How the results depend on the processing

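Replicates and the fit set most limits. With 2 libraries per group a call at a single pair needs a large change. Counts below are rises then falls. Among D-J fragments the main counts were 4 and 2 against MEF and 5 and 1 against pro-B in resting B; among V fragments 3 and 2, and 9 and 1; among pairs 0 and 0, and 5 and 3. Where no number is given for a comparison, it stayed within 1.5 times of these. Counts of D-J and V fragments in the other fits are given without the share of all fragment sums that passed there. They are therefore not read as particular to these fragments. The cause of a change was not tested unless fewer libraries were used.

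DESeq2 size factors left 1 falling D-J fragment and 1 falling V fragment over MEF. With all Igh reads as library size, D-J fragments gave 1 and 0 over MEF and no fall (0) over pro-B. V fragments then gave 0 falls over MEF, and 5 and 0 over pro-B. Pairs gave 1 rise over MEF, beside 0.662% of all Igh pairs, and 9 and 1 over pro-B, beside 3.38% and 3.35%. With desert reads as library size, D-J and V fragments gave 1 and 0 in both comparisons, and pairs 12 and 0 over pro-B, beside 3.82% and 2.92%. Removing the separation trend gave 1 and 0 D-J and V fragments over MEF, and 2 and 0 D-J and 1 and 0 V fragments over pro-B. It gave 8 rising pairs over pro-B, beside 2.17% of all Igh pairs. The offset from reads to the gene desert left 0 and 0 D-J and V fragments in both, and reversed FOR 76 (-0.31), FOR 80 (-0.46) and FOR 233 (-0.51) over MEF and REV 181 (-0.11) over pro-B.

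Counting each primer pair once gave 0 rising D-J and V fragments over MEF and 0 falling V fragments over pro-B, and turned FOR 233 over MEF to -0.042. The log2 fold of D-J with the proximal V was then -1.28 in pro-B over MEF (limma adjusted p = 0.0396). Those of resting B over pro-B were 0.96 with the middle V and 0.94 with both. Pairs with 0 reads enter these means as 0.5 reads, and pro-B replicate 2 had the most of them. Without the pair with the most reads, D-J fragments gave 4 falls over MEF and 2 over pro-B, V fragments 1 fall over MEF and 4 and 3 over pro-B, and the sums over pro-B passed at 0.59 for the middle V and 0.46 for both blocks. With only the 4 libraries compared, the sums over MEF passed at 0.47 for the proximal V, 0.44 for the middle V and 0.46 for both. D-J fragments then gave 4 falls over MEF and 0 over pro-B, V fragments 15 and 6, and 4 and 0. Pairs gave 31 and 33, and 0 and 0. The shares of all Igh pairs and sums that passed are not given for that fit, so these counts are not read as particular to the D-J region. The replicate block left 1 falling D-J and 1 falling V fragment over MEF and 2 and 0 pairs over pro-B, beside 0.561% and 1.71% of all Igh pairs. With it 3 rising D-J fragments over MEF and 7 rising V fragments over pro-B were left, and the region sums and region ratios kept their side of the threshold. Of the fragment ratios to neighbours, both that fell over MEF no longer passed (REV 85 and FOR 91), and over pro-B FOR 84 and REV 85 still passed while FOR 78, FOR 80, FOR 82, FOR 86 and FOR 91 did not. Same-numbered libraries did not deviate together (correlations -0.02 for pro-B and MEF, -0.01 for resting B and MEF, 0.05 for resting B and pro-B). This does not show whether they were prepared together.

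DESeq2 called 12 and 12 pairs over MEF, 47 and 19 over pro-B and 9 falls in pro-B over MEF. The bias-adjusted form of edgeR's test, added after the data were seen, called 1 and 2 pairs over MEF, beside 2.07% and 2.19%. Over pro-B it called 34 and 11, beside 9.05% and 11.6%. Having no filter, or a filter of 50 reads, called 1 rising pair over MEF, beside 0.605% and 0.903% of all Igh pairs in these fits. The ratio of REV 81 to its neighbours in resting B over pro-B passed with each V partner counted once (1.40) and with 5 reads added (1.18). The 1 pair above the separation model in resting B became 0 with a residual of 3 and 0 without primer effects.

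Leaving out 1 library at a time, with the library left in its group assumed to vary like the other groups, moved the D-J sum over MEF between 0.39 and 0.61 for the proximal V, 0.37 and 0.57 for the middle V, and 0.38 and 0.59 for both; over pro-B it moved between 0.52 and 0.72 for the middle V and 0.44 and 0.66 for both. The ratio of REV 81 moved between 1.20 and 1.40 over MEF and 0.82 and 1.55 over pro-B. The ratio of D-J contacts with the proximal and middle V to those with the distal V moved, over pro-B, between 0.44 and 1.16 for the near and -0.84 and -0.10 for the far block. D-J fragments gave 0 to 6 rises and 0 to 4 falls over MEF, 0 to 6 and 0 to 3 over pro-B, and 0 to 2 falls in pro-B over MEF. V fragments gave 0 to 15 and 0 to 7 over MEF, 0 to 23 and 0 to 2 over pro-B, and 0 to 4 and 0 to 12 in pro-B over MEF. Pairs gave 0 to 31 and 0 to 34 over MEF, 0 to 162 and 0 to 43 over pro-B, and 0 to 17 and 0 to 144 in pro-B over MEF.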
